A study of Homo sapiens with 72 samples.

Results

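Insulin and the insulin-like growth factors (IGFs) are read by cells through a short chain of proteins, and 10 genes of that chain were followed here at the mRNA level: the receptors IGF1R and INSR, their adaptors IRS1 and IRS2, the ligand IGF2, and the secreted IGF-binding proteins IGFBP2, IGFBP3, IGFBP4, IGFBP5 and IGFBP6. They were taken by name from 26485 gene rows of the mRNA count files, and all 10 were found. The files hold 36 poly(A)-selected mRNA libraries, 4 in each of 9 groups, and a matching set of small RNA libraries. DU145 is a human prostate cancer line with little or no LIN28A mRNA, and IGROV1 is a human ovarian cancer line that expresses LIN28A. Each line was present as WT cells not targeted by CRISPR and as 2 mutant clones (mutant_1 and mutant_2) in which exon 12 of TUT4 and exon 14 of TUT7 had been edited. DU145 WT, mutant_1 and mutant_2 were also present as lines that overexpress LIN28A (LIN28A-OE DU145), made with a lentiviral vector driven by the CMV promoter and selected with puromycin, which the DU145 groups without LIN28A were not stated to have received. DU145 was grown in EMEM and IGROV1 in RPMI, each with serum. The 4 libraries of a group are successive passages of 1 line: passages up to 160 for DU145 WT, 8 to 12 for its mutants, 1 to 4 for all LIN28A-OE DU145 groups, 6 to 9 for IGROV1 WT and 2 to 6 for its mutants. Genotype, clone and passage, and for LIN28A also transduction and puromycin, therefore cannot be told apart, and the p-values below cover the spread between these libraries, not between independent mutants.

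IGF1R and INSR are receptor tyrosine kinases that share ligands and, once bound, phosphorylate IRS1 and IRS2, which recruit phosphatidylinositol 3-kinase and so activate AKT and mTOR. The IGFBPs bind IGFs outside the cell, carry them, and can withhold them from or deliver them to the receptor. TUT4 and TUT7 add uridines to RNA 3′ ends. LIN28A binds precursors of the let-7 microRNAs and recruits these enzymes, which leads to precursor decay. Mature let-7 represses mRNAs through sites in their 3′ UTRs, and IGF1R, INSR and IRS2 are among its known targets.

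The seed of a microRNA (bases 2 to 8, in capitals) sets which sites it pairs with, and all 9 let-7 family members counted here carry the same one. The 4 members with the most reads in DU145 WT are shown, as listed by RefSeq (GRCh38.p14).
let-7a-5p: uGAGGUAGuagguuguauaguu
let-7f-5p: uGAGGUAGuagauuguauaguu
let-7i-5p: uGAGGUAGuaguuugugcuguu
let-7g-5p: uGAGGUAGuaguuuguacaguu

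Matches to this seed were looked for on the mRNA strand in the 3′ UTR of each gene's canonical GENCODE v44 transcript (hg38), as an 8mer (CTACCTCA), a 7mer-m8 (CTACCTC) or a 7mer-A1 (TACCTCA), each position counted once under its longest form. Only the receptors and adaptors held one: 4 of the 10 members, 3 of them with an 8mer. Of 19538 coding transcripts with a 3′ UTR, 15.8% held a match and 3.8% an 8mer, and long 3′ UTRs hold more; those of the receptors and adaptors run from 3609 to 7088 bases and those of the ligand and binding proteins from 173 to 4646. The 6 matches are given with the bases before them, the match itself in capitals.
IGF1R 7mer-A1, chr15:98957518-98957547, + strand: acaatccattcacaagcctcctgTACCTCA
IGF1R 8mer, chr15:98960039-98960068, + strand: tttttttcccccaaacatttatCTACCTCA
IGF1R 7mer-m8, chr15:98964080-98964109, + strand: gtgagaggtttgccagagtttgtCTACCTC
INSR 8mer, chr19:7114656-7114685, - strand: gattttcttttttcagcacagtCTACCTCA
IRS1 7mer-A1, chr2:226734400-226734429, - strand: tgttcattcagccaggtggcatgTACCTCA
IRS2 8mer, chr13:109755844-109755873, - strand: tacactcaaaacgaccacagtcCTACCTCA

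A match is a description of these letters and was not tested as a site. In the same annotation the members lie at chr15:98648539-98964530 (IGF1R), chr19:7112255-7294414 (INSR), chr2:226731312-226799820 (IRS1), chr13:109752695-109786583 (IRS2), chr11:2129112-2158391 (IGF2), chr7:45912245-45921874 (IGFBP3), chr17:40443450-40457725 (IGFBP4) and chr12:53097436-53102345 (IGFBP6). IGFBP2 (chr2:216632828-216664436) and IGFBP5 (chr2:216672105-216695549) are neighbours in tail-to-tail orientation with 7668 bases between them.

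Levels are CPM (gene reads scaled to 1000000 per library) after TMM scaling, in the order of replicates 1 to 4. The mRNA libraries held 7195437 to 25054688 gene reads. In bulk RNA, fewer cells expressing a gene and less of its mRNA per cell cannot be told apart. TUT4 (ZCCHC11 in the files) was lower in the mutants of each background, by 2.63-fold in DU145, 2.02-fold in LIN28A-OE DU145 and 2.88-fold in IGROV1, and TUT7 (ZCCHC6) by 2.44-, 2.29- and 2.22-fold. The fall in TUT4 mRNA was not called in mutant_2 of DU145 (log2 fold change -0.56, adjusted p = 0.0708) or of LIN28A-OE DU145 (-0.25, adjusted p = 0.465), and it was called in each other clone. A small edit need not lower an mRNA, so this checks the labels only in part. LIN28A stood at 0 to 0.456 CPM in DU145 WT, at 64.2 to 75.3 CPM in LIN28A-OE DU145 WT, at 316 to 396 and 211 to 300.4 CPM in LIN28A-OE DU145 mutant_1 and mutant_2, and at 185 to 261 CPM in IGROV1 WT, so the overexpressing mutants carried 4.25-fold more LIN28A mRNA than the overexpressing WT. DU145 expressed epithelial keratins (KRT8 mean 787 CPM). Of the prostate markers reported here, KLK2 and KLK3 had no read in DU145 WT, and HOXB13 and TMPRSS2 were at most 0.052 CPM on average. IGROV1 WT expressed the ovarian and Mullerian markers PAX8 (674 CPM) and SOX17 (177 CPM), with less MUC16 (2.23 CPM) and hardly any WT1 (0.346 CPM) or EMX2 (0.0138 CPM). Of epithelial markers it held KRT19 (733 CPM), KRT18 (238 CPM), KRT8 (205 CPM) and EPCAM (81.5 CPM), and little CDH1 (4.76 CPM). The 4 markers of other cells (PTPRC, PECAM1, COL1A1 and PDGFRB) summed to 4.37 to 5.93 CPM in DU145 WT libraries and 14.4 to 17.4 CPM in IGROV1 WT libraries, most of it COL1A1 (4.84 and 13.9 CPM), and PTPRC averaged at most 0.0427 CPM. Libraries farthest from their own group were replicate 4 of IGROV1 mutant_1, IGROV1 mutant_2 and DU145 mutant_1 and replicate 1 of LIN28A-OE DU145 WT (median absolute log2 deviation 0.208 to 0.331, against 0.0623 to 0.194 in the others). Without these 4 libraries the members called were 5 in each of the DU145 and IGROV1 mutant comparisons, 4 in the LIN28A-OE mutants and 7 for LIN28A in WT, against 5, 4, 3 and 5 with them. Calls over all genes rose as well. In the same order they were 3972, 5878, 4551 and 4526 of 15692 without these libraries, against 2809, 5172, 2787 and 1433 of 15556.

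**Figure D1:**
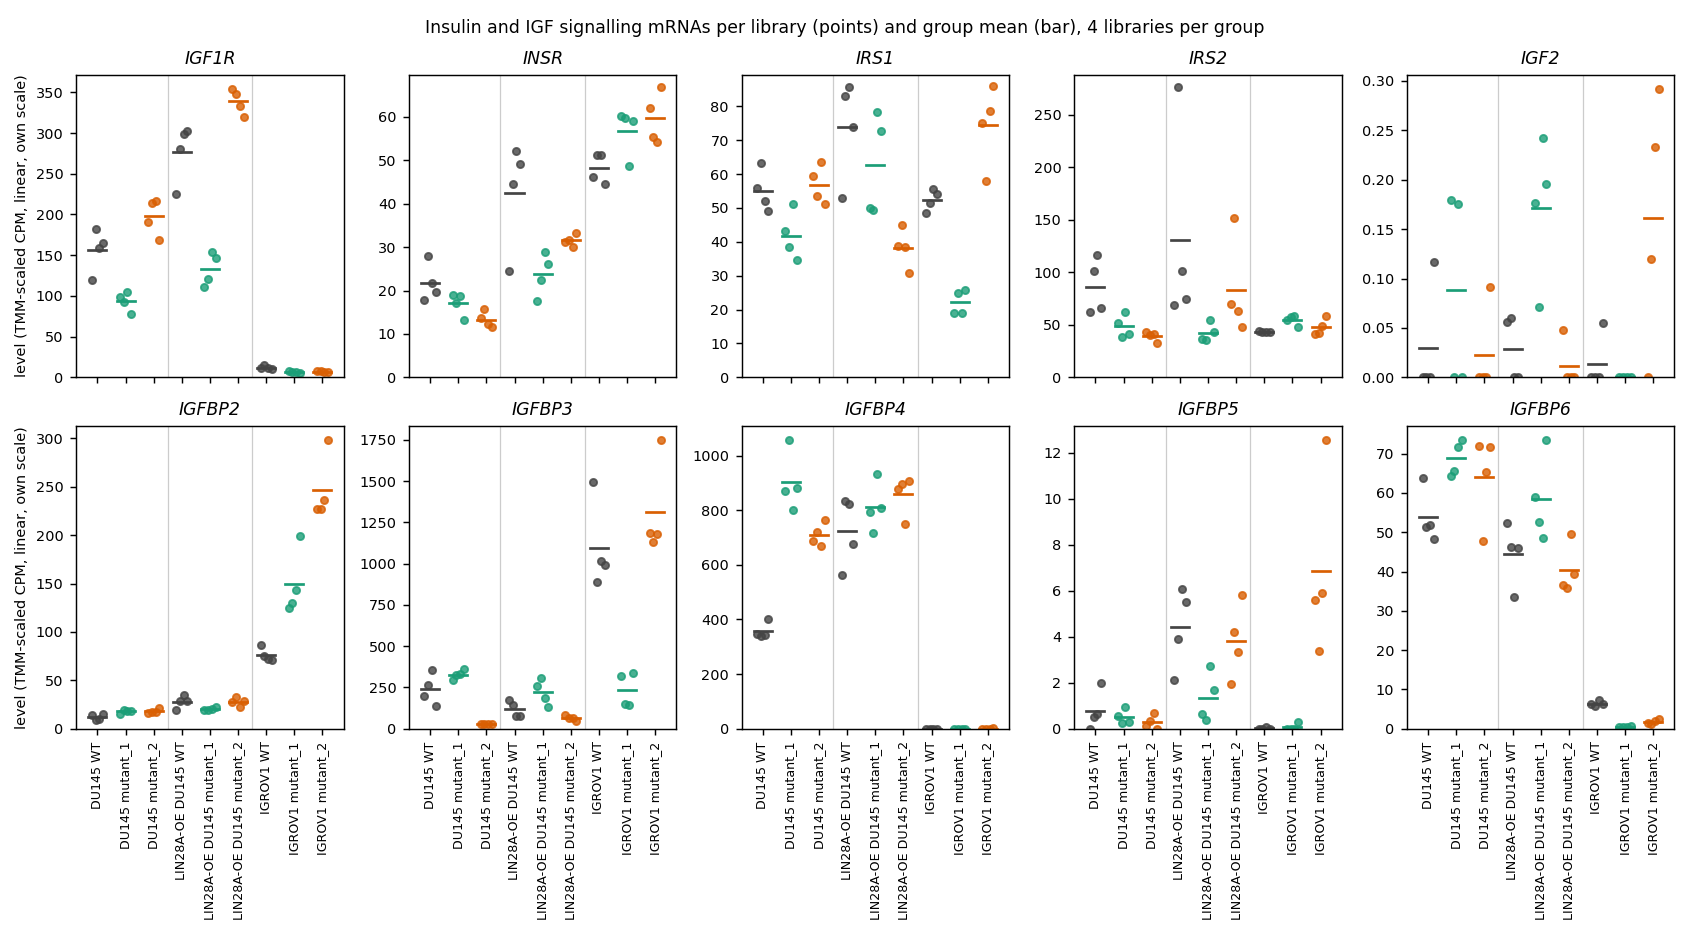
Level of each insulin and IGF signalling mRNA (TMM-scaled CPM, linear axis, each gene on its own scale) in every library, by group; points are libraries, bars are means of 4. IGFBP4 sits at 339.7 CPM or more in every DU145 library and at 1.02 CPM or less in every IGROV1 library, and IGF1R is at 14.99 CPM or less in IGROV1.

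The lines themselves held very different sets of these mRNAs. Per kb of annotated exon, IGFBP4 led in DU145 WT (162 CPM per kb), followed by IGFBP3 (52.6) and IGFBP6 (40.0), then IGF1R (11.2) and IRS2 (10.6), IRS1 (5.5), IGFBP2 (2.49) and INSR (2.01), with IGFBP5 at 0.121. In that order the libraries of IGFBP3 and IGFBP6, of IGF1R and IRS2, and of IGFBP2 and INSR overlapped. In IGROV1 WT, IGFBP3 led (240 CPM per kb) ahead of IGFBP2 (16.1), and IRS2 (5.31), IRS1 (5.23), IGFBP6 (4.74) and INSR (4.46) each overlapped their neighbour in the order, while IGF1R stood at 0.861, IGFBP4 at 0.121 and IGFBP5 at 0.00271. Per kb of the canonical transcript alone, IGFBP2 (8.34) passed IRS1 (5.64) in DU145 WT, and IGFBP6 (6.73) passed IRS2 (5.31) and IRS1 (5.36) in IGROV1 WT.

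Between WT lines, 8 of the 9 members tested were called at a Benjamini-Hochberg adjusted p under 0.01 in edgeR's quasi-likelihood test over 15556 genes, where 60% of all genes were called (28.7% higher and 31.3% lower in IGROV1), so the count is read against a wide background. IGF1R was at 11.2, 14.99, 11.4 and 10.4 CPM in IGROV1 WT and at 119, 182, 158.7 and 165 CPM in DU145 WT. The groups did not overlap, and IGROV1 was 13-fold lower (log2 fold change -3.70 ± 0.152, adjusted p = 1.02e-20). INSR went the other way, at 46.2, 51.2, 51.1 and 44.6 CPM against 17.9, 28.01, 21.7 and 19.6 CPM, 2.21-fold higher in IGROV1 (log2 fold change 1.15 ± 0.171, adjusted p = 4.55e-07). Of the binding proteins, IGFBP2 was 6.48-fold higher in IGROV1 (log2 fold change 2.70 ± 0.178, adjusted p = 3.36e-15) and IGFBP3 4.56-fold higher (log2 fold change 2.19 ± 0.302, adjusted p = 1.03e-07). IGFBP6 was 8.44-fold lower (log2 fold change -3.08 ± 0.178, adjusted p = 9.88e-17). IGFBP4, a 13828-read transcript summed over the 4 DU145 WT libraries, was counted 18 times over the 4 IGROV1 WT libraries (log2 fold change -10.33 ± 0.277, adjusted p = 1.06e-25). IGFBP5 had 29 reads in DU145 WT and 1 in IGROV1 WT, a ratio of 50 with a 95% exact counting interval of 8.29 to 2040, which covers counting error only; without DU145 WT replicate 4 its adjusted p was 0.0229. IRS2 was 2-fold lower in IGROV1 (log2 fold change -0.997 ± 0.312, adjusted p = 0.00541), a call lost in 5 of the 8 fits that left out 1 library. IRS1 did not pass (log2 fold change -0.07 ± 0.161, adjusted p = 0.702). The lines differ in origin, medium and LIN28A at once, and these cannot be told apart.

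IGF2, a fetal growth factor that binds both receptors, had no read in 21 libraries and 1 to 4 reads in 15, 31 reads in all, and failed the low-count filter. A count of 0 still allows 3 reads, which is 0.417 CPM in the shallowest library and 0.12 CPM in the deepest. In GENCODE v44, 17.9% of the exon bases of the canonical IGF2 transcript are also exon of the read-through gene INS-IGF2 on the same strand and 38.4% of another same-strand gene (ENSG00000284779). Reads on shared bases can be dropped as ambiguous by the counter, so IGF2 levels are uncertain and no fold is given.

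In the DU145 TUT4/7 mutants, IGFBP2 and IGFBP4 were higher than in WT, and INSR, IRS2 and IGFBP3 were lower. Of 9 members tested, 2 were called higher in the mean of both clones and 3 lower, where 18.1% of all genes were called (7.84% higher, 10.2% lower). The median log2 fold change of the 9 was -0.20, against -0.004 over all genes tested. IGFBP4, which binds IGFs and is generally described as inhibitory, stood at 346, 339.7, 344 and 402 CPM in WT, 871, 1056, 801 and 883 CPM in mutant_1 and 686, 721, 668 and 765 CPM in mutant_2. Each mutant library was above each WT library, by 2.24-fold in the mean (log2 fold change 1.16 ± 0.148, adjusted p = 2.9e-07), and each clone passed alone (log2 fold changes 1.33 and 0.99). IGFBP2, another IGF carrier, rose from 13.9, 8.69, 9.84 and 14.7 CPM to 15.3, 19.0, 18.5 and 18.5 CPM in mutant_1 and 16.5, 16.9, 17.3 and 21.4 CPM in mutant_2, 1.52-fold (log2 fold change 0.61 ± 0.156, adjusted p = 0.00339), again in each clone alone (0.60 and 0.62). These 2 were the only members called the same way in each DU145 clone, as were 5.2% of all genes. In all, 3 members passed in mutant_1 (21.8% of all genes) and 5 in mutant_2 (20.5%). The IGFBP2 call was lost without WT replicate 2, WT replicate 3 or mutant_2 replicate 4 (adjusted p 0.0406, 0.0328 and 0.0103).

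IGFBP3, the main IGF carrier of plasma, separated the DU145 clones instead. It stood at 199, 266, 357 and 139 CPM in WT and at 294, 322, 334 and 359.7 CPM in mutant_1, which overlapped. In mutant_2 it was at 29.4, 28.9, 28.4 and 27.99 CPM, below every other DU145 library without LIN28A. Mutant_2 fell 8.39-fold against WT (log2 fold change -3.07 ± 0.318, adjusted p = 3.07e-09), mutant_1 did not pass (log2 fold change 0.45 ± 0.291, adjusted p = 0.248), and the clones differed by 11.4-fold (log2 difference 3.52 ± 0.324, adjusted p = 1.39e-10), so the mean over clones (log2 fold change -1.31 ± 0.245, adjusted p = 0.000106) describes neither.

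On the receptor side, INSR was at 17.9, 28.01, 21.7 and 19.6 CPM in WT, 19.0, 17.1, 18.9 and 13.2 CPM in mutant_1 and 13.6, 15.7, 12.4 and 11.6 CPM in mutant_2. WT and mutant_1 overlapped and every mutant_2 library was below WT, for a fall of 1.45-fold in the mean (log2 fold change -0.53 ± 0.15, adjusted p = 0.00694). IRS2 was at 62.4, 101, 116 and 66.0 CPM in WT, 51.4, 38.1, 62.5 and 41.6 in mutant_1 and 43.2, 40.1, 41.2 and 32.5 in mutant_2, 1.98-fold lower (log2 fold change -0.99 ± 0.262, adjusted p = 0.00448). For both genes mutant_2 passed alone and mutant_1 did not (adjusted p 0.122 for INSR and 0.0384 for IRS2). INSR lost its call in 6 of 12 fits without 1 library and IRS2 in 3, and without WT replicate 2 or WT replicate 3 only 2 members stayed called in DU145. IGF1R passed in mutant_1, at 98.6, 92.4, 105 and 77.5 CPM against 119, 182, 158.7 and 165 CPM in WT (log2 fold change -0.74 ± 0.135, adjusted p = 6.75e-05), and not in mutant_2, at 191, 214, 216 and 168 CPM (log2 fold change 0.34 ± 0.134, adjusted p = 0.0522). The difference between these clones was itself called (log2 difference -1.08 ± 0.136, adjusted p = 7.77e-08), and IGF1R and IGFBP3 were the 2 members so called, where 31.1% of all genes were. IRS1, IGFBP5 and IGFBP6 did not pass in either clone (adjusted p 0.0605 to 0.863). Of the 5 epithelial markers, EPCAM was lower in mutant_1 (11.4 CPM on average against 54.3 CPM in WT, adjusted p = 3.46e-11) and not called in mutant_2 (54 CPM), and CDH1 was lower in mutant_1 (41.4 against 85.1 CPM, adjusted p = 0.00529). KRT8 averaged 786.5 CPM in WT, 1080 CPM in mutant_1 and 1379 CPM in mutant_2. In the same order KRT18 averaged 456.6, 474.2 and 769.5 CPM and KRT19 522.8, 415.6 and 499.9 CPM. All 5 summed to 1420 to 2600 CPM in WT, 1730 to 2420 CPM in mutant_1 and 2420 to 3390 CPM in mutant_2. The 4 markers of other cells summed to 8.06 to 12.4 CPM in mutant_1 and 6.24 to 10.1 CPM in mutant_2, above the 4.37 to 5.93 CPM of WT. Their part in these differences was not tested.

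**Figure D2:**
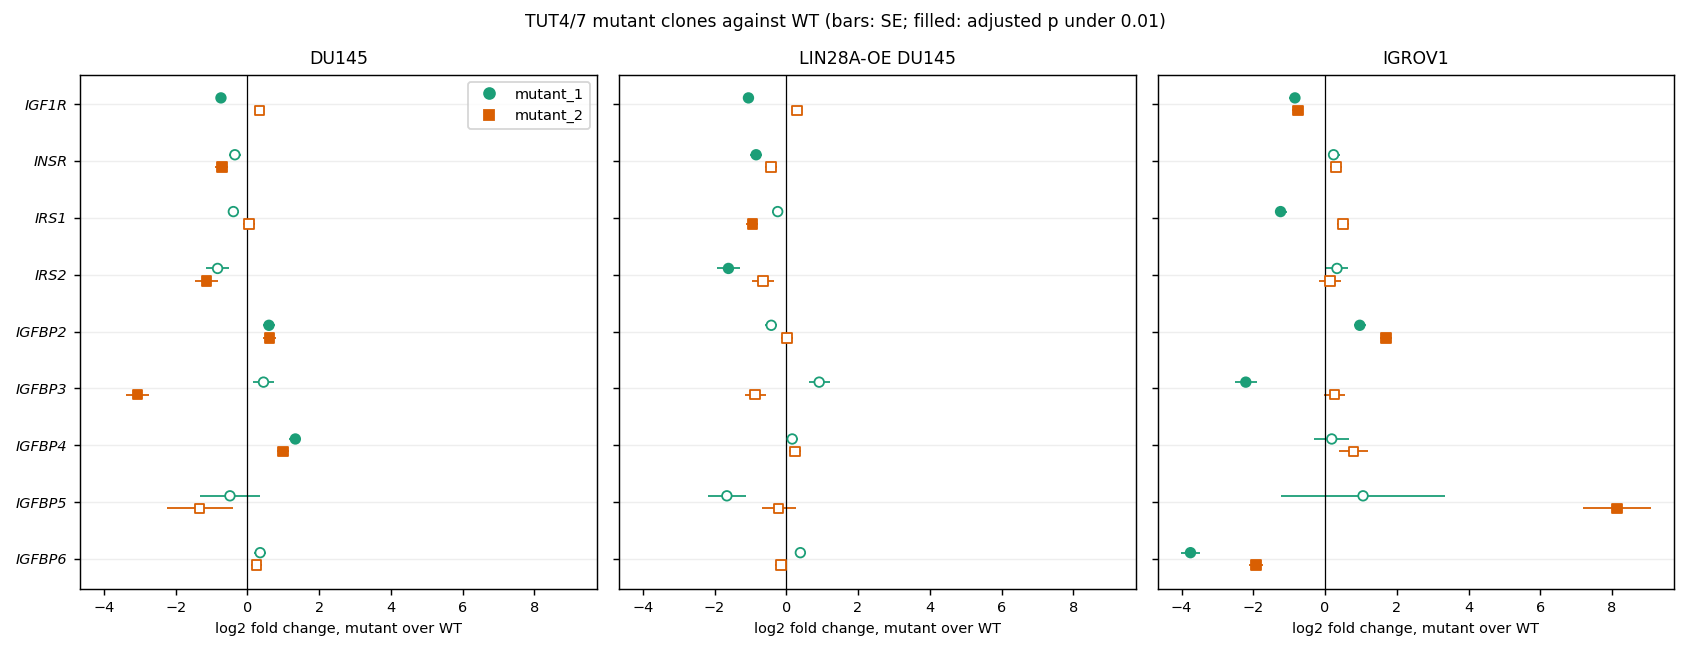
Log2 fold change of 9 members in each TUT4/7 mutant clone over WT, in DU145, LIN28A-OE DU145 and IGROV1; bars are standard errors and filled symbols passed an adjusted p under 0.01. IGF1R and IGFBP6 are below 0 and IGFBP2 above 0 in each IGROV1 clone, whereas IGFBP3 lies at -3.07 in DU145 mutant_2 and at 0.45 in DU145 mutant_1.

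In LIN28A-OE DU145, 1 receptor and both adaptors were called lower in the mean of the TUT4/7 mutant clones. The count of binding proteins called by edgeR was 0 (1, IGFBP5, at an unadjusted p under 0.05, and 0 by DESeq2). INSR, IRS1 and IRS2 were called lower and 0 members higher, where 17.9% of all genes were called (7.35% higher, 10.6% lower). The median of the 9 members was -0.38, against 0.001 over all genes. INSR stood at 24.5, 44.5, 52.1 and 49.2 CPM in WT, 17.7, 22.4, 28.8 and 26.0 CPM in mutant_1 and 31.2, 31.6, 29.98 and 33.4 CPM in mutant_2. WT replicate 1 lay among the mutants and the other 3 above all of them, with a mean fall of 1.55-fold (log2 fold change -0.64 ± 0.142, adjusted p = 0.000823). IRS1 was at 53.1, 83.1, 85.8 and 73.9 CPM in WT and 49.9, 49.5, 78.4 and 72.7 CPM in mutant_1, which overlapped, and at 38.8, 45.0, 38.6 and 30.8 CPM in mutant_2, 1.93-fold below WT (log2 fold change -0.95 ± 0.162, adjusted p = 2.42e-05). INSR and IRS1 both lost the call in the mean of clones without WT replicate 3 (adjusted p 0.012 and 0.0111), which left 1 member called. In a fit of only the groups compared, INSR (-0.64, adjusted p = 0.0111) and IRS2 (-1.13, adjusted p = 0.0308) did not pass.

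For IRS2, the call in the mean of the LIN28A-OE clones rested on 1 library. It was at 68.9, 276, 102 and 74.7 CPM in WT, 36.8, 35.8, 54.5 and 43.4 CPM in mutant_1 and 70.1, 151, 63.5 and 48.0 CPM in mutant_2, and replicate 2 was the highest of WT and of mutant_2. The mean log2 fold change was -1.13 ± 0.257 (adjusted p = 0.00102). Without WT replicate 2 it was -0.46 with an adjusted p of 0.144. Mutant_1 alone passed (log2 fold change -1.61 ± 0.315, adjusted p = 0.000123) and mutant_2 did not (log2 fold change -0.65 ± 0.307, adjusted p = 0.112).

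The receptor IGF1R again separated the clones. It stood at 225, 280.5, 298 and 303 CPM in WT, at 111, 121, 154 and 147 CPM in mutant_1 and at 354, 348, 334 and 320.3 CPM in mutant_2. All mutant_1 libraries were below and all mutant_2 libraries above WT. Mutant_1 was 2.08-fold lower (log2 fold change -1.05 ± 0.135, adjusted p = 1.69e-07), mutant_2 did not pass (log2 fold change 0.29 ± 0.133, adjusted p = 0.0946), and the difference between clones was called (log2 difference -1.35 ± 0.136, adjusted p = 6.83e-10). Between these clones 4 members were called (IGF1R, IRS1, IGFBP3 and IGFBP6, the last lost in 5 of 8 fits without 1 library), where 37.7% of all genes were. IGFBP3 was likewise higher in mutant_1 than in mutant_2 here (261, 309, 188 and 134 against 83.2, 63.9, 63.2 and 48.3 CPM, log2 difference 1.78 ± 0.3, adjusted p = 8.86e-06). The LIN28A-OE mutants carry the clone labels of the DU145 mutants, so the 2 backgrounds are not independent views of a clone. No member was called the same way in each LIN28A-OE clone, as were 5.41% of all genes. In mutant_1, 3 members passed (25.2% of all genes) and in mutant_2 only IRS1 (20.6%). In these 3 groups LIN28A mRNA was higher in the mutants than in WT. EPCAM was lower than in WT in mutant_1 (15.2 against 41.5 CPM, adjusted p = 7.26e-08) and higher in mutant_2 (75 CPM, adjusted p = 0.000192). The 5 epithelial markers summed to 1460 to 2600 CPM in WT, 1830 to 2290 CPM in mutant_1 and 2150 to 2910 CPM in mutant_2. The 4 markers of other cells summed to 15.2 to 21.5 CPM in mutant_1 and 12.3 to 21.2 CPM in mutant_2, against 8.12 to 13.5 CPM in WT. The part of LIN28A or of these markers in the differences was not tested.

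In IGROV1, the members that differed between mutants and WT in the mean of clones were IGF1R and 3 binding proteins. IGFBP2 was called higher, and IGF1R, IGFBP3 and IGFBP6 lower, where 33.2% of all genes were called (15.1% higher, 18.1% lower). The median of the 9 members was 0.23, against 0 over all genes. IGFBP6, which prefers IGF2 over IGF1 as its ligand, fell from 6.32, 5.7, 7.23 and 6.27 CPM in WT to 0.552, 0.391, 0.336 and 0.616 CPM in mutant_1 and 1.44, 1.07, 2.02 and 2.41 CPM in mutant_2. All 8 mutant libraries were below all WT libraries, by 7.16-fold in the mean (log2 fold change -2.84 ± 0.187, adjusted p = 1.21e-14), by 13.5-fold in mutant_1 and 3.81-fold in mutant_2, and the clones differed (log2 difference -1.82 ± 0.303, adjusted p = 1.52e-05). IGFBP6 had 3 to 9 reads per library in mutant_1 and 26 to 33 in mutant_2, against 92 to 116 in WT, so its fold in mutant_1 rests on few reads. IGFBP2 rose from 86.6, 74.96, 71.9 and 71.3 CPM to 125, 129.6, 143 and 199 CPM in mutant_1 and 226, 227, 236 and 298 CPM in mutant_2. Here too no mutant library reached into the WT range, with a 2.52-fold mean rise (log2 fold change 1.33 ± 0.147, adjusted p = 3.45e-09), larger in mutant_2 than in mutant_1 (log2 difference -0.73 ± 0.16, adjusted p = 0.000624). Fitted on the IGROV1 mutant clones alone, that clone difference did not pass (-0.73, adjusted p = 0.0144). IGF1R was at 11.2, 14.99, 11.4 and 10.4 CPM in WT, 7.73, 6.87, 6.26 and 5.54 CPM in mutant_1 and 8.06, 7.6, 5.99 and 6.49 CPM in mutant_2, 1.74-fold lower without overlap (log2 fold change -0.80 ± 0.126, adjusted p = 3.12e-06). These 3 genes were called the same way in each clone, as were 17.5% of all genes (31.1% in mutant_1 and 30.1% in mutant_2 taken alone), and kept their call in each of the 12 fits that left out 1 library. Epithelial markers differed in the same libraries. EPCAM was at 81.5 CPM on average in WT, 0.262 CPM in mutant_1 and 0.133 CPM in mutant_2, KRT8 at 205, 3.1 and 1.61 CPM, and CDH1 at 4.76, 1.03 and 0.234 CPM, each called lower in each clone (adjusted p at most 8.2e-06). KRT18 and KRT19 were called lower in mutant_2 and not in mutant_1. The 5 epithelial markers summed to 1170 to 1310 CPM in WT, 762 to 1430 CPM in mutant_1 and 335 to 379 CPM in mutant_2, and the 4 markers of other cells to 14.4 to 17.4, 11.3 to 13.6 and 20 to 32.9 CPM. Their part in the differences of the members was not tested.

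The other changes in IGROV1 belonged to 1 clone. IGFBP3 fell in mutant_1 to 319, 147, 142 and 340.1 CPM from 1492, 891, 1014 and 990.1 CPM in WT (log2 fold change -2.21 ± 0.302, adjusted p = 2.89e-07), while mutant_2 at 1187, 1134, 1179 and 1749 CPM did not pass (log2 fold change 0.26 ± 0.289, adjusted p = 0.508). IRS1 fell in mutant_1, to 19.0, 25.0, 19.0 and 25.9 CPM from 48.6, 51.4, 55.6 and 54.0 CPM (log2 fold change -1.24 ± 0.166, adjusted p = 1.93e-07), and stood at 75.2, 57.9, 78.5 and 86.0 CPM in mutant_2 (log2 fold change 0.51 ± 0.16, adjusted p = 0.0113). Both genes differed between the clones (log2 difference -2.47 ± 0.305, adjusted p = 9.17e-08 for IGFBP3, log2 difference -1.75 ± 0.168, adjusted p = 4.6e-10 for IRS1). In all, 5 members were called between these clones (IRS1, IGFBP2, IGFBP3, IGFBP5 and IGFBP6), where 18.8% of all genes were. In the mean of both clones the call for IGFBP3 (log2 fold change -0.98 ± 0.243, adjusted p = 0.00132) was lost without WT replicate 1 (adjusted p = 0.0159). IGFBP5, a binding protein of bone and muscle, was close to silent in WT with 1 read over 4 libraries and in mutant_1 with 2, but was present in each mutant_2 library at 5.59, 3.38, 5.92 and 12.6 CPM, 442 reads in all. The ratio of mutant_2 to WT was 416 (95% exact counting interval 74.2 to 16500) and of mutant_2 to mutant_1 154 (42.4 to 1280). The same clone held the higher level of the neighbouring gene IGFBP2, which was also above WT in mutant_1. IRS1, IGFBP3 and IGFBP6 were higher in mutant_2 than in mutant_1 as well. A link between the neighbours was not tested. INSR and IRS2 did not pass in either clone (adjusted p 0.145 to 0.769), nor did IGFBP4 at 15 to 33 reads per group.

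Tested as a difference between lines, the mutant effect in IGROV1 minus that in DU145 was called for 4 members, where 24.2% of all genes were called. Of these, IGFBP6 differed most (log2 difference -3.14 ± 0.24, adjusted p = 1.35e-12), and this was the only one called in the same direction for each pair of clones numbered alike, as were 10.1% of all genes (23% with mutant_1 alone and 26% with mutant_2 alone). INSR (log2 difference 0.80 ± 0.209, adjusted p = 0.00272) and IGFBP2 (log2 difference 0.72 ± 0.208, adjusted p = 0.0064) were more positive in IGROV1, and IGF1R more negative (log2 difference -0.60 ± 0.173, adjusted p = 0.00671). Pairing mutant_1 with mutant_1 and mutant_2 with mutant_2 across lines is arbitrary, and with mutant_1 alone INSR, IGFBP2 and IGF1R did not pass (adjusted p 0.0586, 0.25 and 0.759). Left out 1 at a time, the 24 libraries cost IGF1R its call 6 times, IGFBP2 7 times, INSR once and IGFBP6 never, and without IGROV1 WT replicate 2 only 2 members stayed called. The 5 others were not called in the mean of clones, IRS2 with an adjusted p of 0.0123. For IGFBP3 the clones were called in opposite directions, lower in IGROV1 with mutant_1 (log2 difference -2.66 ± 0.417, adjusted p = 5.59e-06) and higher with mutant_2 (log2 difference 3.33 ± 0.424, adjusted p = 1.2e-07). IRS1 was called with mutant_1 only (log2 difference -0.85 ± 0.232, adjusted p = 0.00452), and IGFBP5, with 1 read in IGROV1 WT, was called higher with mutant_2 only (adjusted p = 4.11e-06).

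With LIN28A overexpressed in WT DU145, both receptors and 3 binding proteins were higher. Of the 9 members, 5 were called higher and 0 lower, where 9.21% of all genes were called (6.67% higher, 2.55% lower). The median of the 9 was 0.83, against 0.04 over all genes. IGF1R went from 119, 182, 158.7 and 165 CPM to 225, 280.5, 298 and 303 CPM, without overlap and 1.77-fold higher (log2 fold change 0.82 ± 0.135, adjusted p = 4.72e-05). INSR went from 17.9, 28.01, 21.7 and 19.6 CPM to 24.5, 44.5, 52.1 and 49.2 CPM, 1.95-fold higher with replicate 1 of the overexpressing line inside the DU145 range (log2 fold change 0.96 ± 0.171, adjusted p = 0.000141). The adaptors were at 53.1, 83.1, 85.8 and 73.9 CPM for IRS1 and 68.9, 276, 102 and 74.7 CPM for IRS2, overlapped DU145 WT and did not pass (log2 fold change 0.42 ± 0.161, adjusted p = 0.0625 for IRS1, log2 fold change 0.59 ± 0.308, adjusted p = 0.182 for IRS2).

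Among the binding proteins, IGFBP2 rose from 13.9, 8.69, 9.84 and 14.7 CPM to 18.8, 28.1, 34.5 and 28.8 CPM, 2.34-fold (log2 fold change 1.23 ± 0.174, adjusted p = 6.15e-06). IGFBP4 rose from 346, 339.7, 344 and 402 CPM to 564, 834, 824 and 677 CPM, 2.02-fold (log2 fold change 1.02 ± 0.164, adjusted p = 3.86e-05). Neither pair of groups overlapped. IGFBP5 stayed low but rose from 0, 0.511, 0.638 and 1.99 CPM to 2.11, 3.91, 6.07 and 5.53 CPM, 5.68-fold (log2 fold change 2.505 ± 0.615, adjusted p = 0.00412), and its call was lost in 5 of 8 fits without 1 library and under DESeq2 (adjusted p 0.0114). IGFBP3 at 174, 146, 74.7 and 77.2 CPM was lower without passing (log2 fold change -1.03 ± 0.294, adjusted p = 0.0135), and IGFBP6 did not pass (log2 fold change -0.27 ± 0.16, adjusted p = 0.239). Of the 4 members with a let-7 match, IGF1R and INSR were thus called higher and IRS1 and IRS2 were not. Of the 5 tested members without one, IGFBP2, IGFBP4 and IGFBP5 were called higher. Fitted on these 8 libraries alone, only IGFBP4 passed. The log2 changes of the other 4 were then 0.79 (IGF1R), 0.92 (INSR), 1.18 (IGFBP2) and 2.46 (IGFBP5), with adjusted p of 0.0126, 0.0376, 0.0186 and 0.0494.

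**Figure D3:**
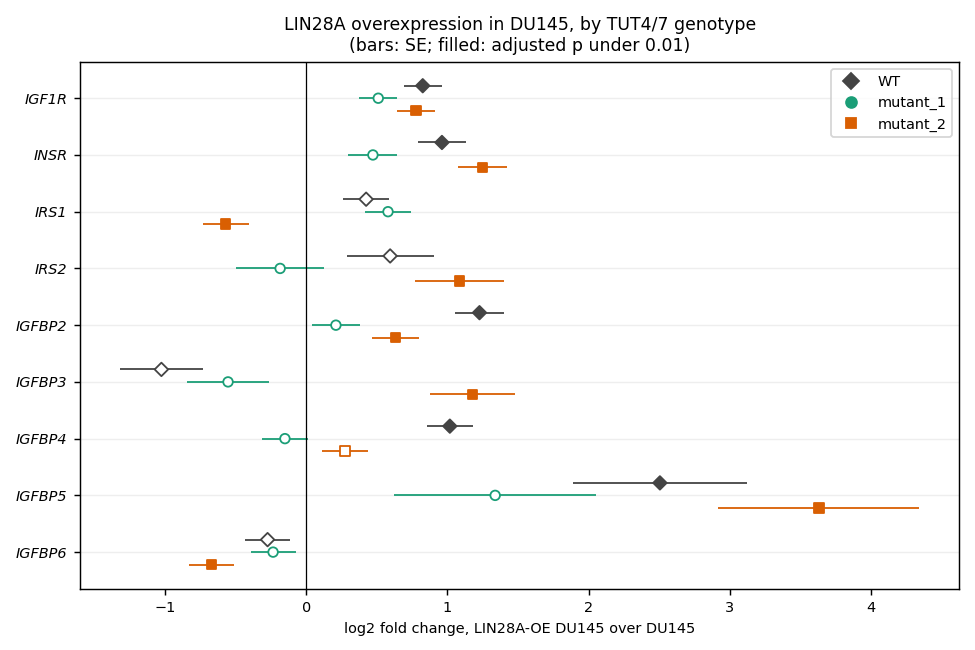
Log2 fold change of 9 members in LIN28A-OE DU145 over DU145, separately for WT, mutant_1 and mutant_2; bars are standard errors and filled symbols passed an adjusted p under 0.01. IGF1R, INSR, IGFBP2 and IGFBP5 lie above 0 in all 3, while IGFBP4 is at 1.02 in WT and at -0.15 and 0.27 in the clones.

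Without TUT4/7, LIN28A overexpression went with 4 members called higher (IGF1R, INSR, IGFBP2 and IGFBP5) and 1 lower (IGFBP6) in the mean of both clones, where 23.6% of all genes were called (13.9% higher, 9.76% lower). The log2 fold change in the mean of clones was 0.65 ± 0.0951 (adjusted p = 6e-06) for IGF1R and 0.86 ± 0.123 (adjusted p = 3.89e-06) for INSR. For IGFBP2 it was 0.42 ± 0.119 (adjusted p = 0.00634), a call lost in 10 of 16 fits that left out 1 library. IGFBP5 (log2 fold change 2.48 ± 0.508, adjusted p = 0.000352) and IGFBP6 (log2 fold change -0.45 ± 0.113, adjusted p = 0.0022) kept theirs in each of those fits. With mutant_2 alone 8 members passed, where 19% of all genes were called. With mutant_1 alone 0 passed by edgeR, where 3.1% were called, and 3 members (IGF1R, INSR and IRS1) had an unadjusted p under 0.05. Of all genes, 1.66% were called the same way in each clone. In mutant_2, INSR rose from 13.6, 15.7, 12.4 and 11.6 CPM to 31.2, 31.6, 29.98 and 33.4 CPM (log2 fold change 1.25 ± 0.175, adjusted p = 3.84e-06), and IRS2 rose (log2 fold change 1.09 ± 0.314, adjusted p = 0.00845) while IRS1 fell (log2 fold change -0.57 ± 0.162, adjusted p = 0.00748). In mutant_1 the log2 fold changes were 0.51 ± 0.135 (adjusted p = 0.0155) for IGF1R, 0.47 ± 0.173 (adjusted p = 0.0837) for INSR and 0.58 ± 0.162 (adjusted p = 0.0226) for IRS1. Whether the clones differ in their response to LIN28A was not tested.

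The LIN28A effect in mutants minus that in WT was called for IGFBP4 alone (log2 difference -0.96 ± 0.199, adjusted p = 0.00849), where 0.489% of all genes were called. IGFBP4 was at 801 to 1056 and 668 to 765 CPM in the DU145 mutants, against 564 to 834 CPM in LIN28A-OE DU145 WT, and at 717 to 933 and 751 to 908 CPM in the overexpressing clones. The call was lost in 19 of 24 fits that left out 1 library (highest adjusted p 0.0309), with a log2 difference of -1.06 to -0.88 throughout. For the receptors the log2 difference was -0.18 ± 0.164 (adjusted p = 0.752) for IGF1R and -0.10 ± 0.21 (adjusted p = 0.929) for INSR, and IGFBP2 (log2 difference -0.81 ± 0.21, adjusted p = 0.0422) and IGFBP3 (log2 difference 1.34 ± 0.36, adjusted p = 0.0514) did not pass. With mutant_2 alone the difference for IGFBP3 was called (log2 difference 2.20 ± 0.421, adjusted p = 0.0029, 0.476% of all genes called) and with mutant_1 alone that for IGFBP4 (log2 difference -1.17 ± 0.23, adjusted p = 0.00331, 0.72%), and 0.09% of all genes were called the same way in each. The LIN28A level differed between these WT and mutant lines as given above.

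The let-7 family itself was summed in the matching small RNA libraries, in CPM of all microRNA reads, and its 5 comparisons were called at an adjusted p under 0.05, not the 0.01 used for mRNAs. DU145 WT held 72552 to 83062, against 47297 to 53468 in mutant_1 and 49263 to 62449 in mutant_2, 1.44-fold lower (log2 difference -0.53, exact permutation test, two-sided, adjusted over 5 comparisons, p = 0.0101). LIN28A-OE DU145 WT held 19002 to 28950, 3.49-fold below DU145 WT without overlap (log2 difference -1.81, exact permutation p = 0.0286, the smallest 4 against 4 can give, adjusted p = 0.0357). The LIN28A-OE mutants held 16327 to 61152 (mutant_1) and 37939 to 50736 (mutant_2), 1.82-fold above their WT (log2 difference 0.87, exact permutation adjusted p = 0.0357), with 1 mutant_1 library, replicate 2 at 16327, below all WT libraries. They were 1.33-fold below the DU145 mutants (log2 difference -0.41, exact permutation adjusted p = 0.0357), a difference that did not pass without that library (-0.22, exact permutation adjusted p = 0.0629). It also did not pass without DU145 mutant_1 replicate 3 or 4 or DU145 mutant_2 replicate 2, 3 or 4 (adjusted p from 0.0542 to 0.0785, by the same exact test). IGROV1 WT held 23362 to 26412, mutant_1 34799 to 35824 and mutant_2 16633 to 19813. Its clones lay on either side of WT, and the difference of their mean from it was not called (log2 difference 0.03, exact permutation adjusted p = 0.895). Where all rows of a microRNA were summed in place of its highest row, only the difference between DU145 mutants and WT was called. The log2 differences were then 0.61 for the LIN28A-OE mutants against WT (exact permutation adjusted p = 0.0572), -1.41 for LIN28A in WT (0.0572) and -0.23 for LIN28A in the mutants (0.242).

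**Figure D4:**
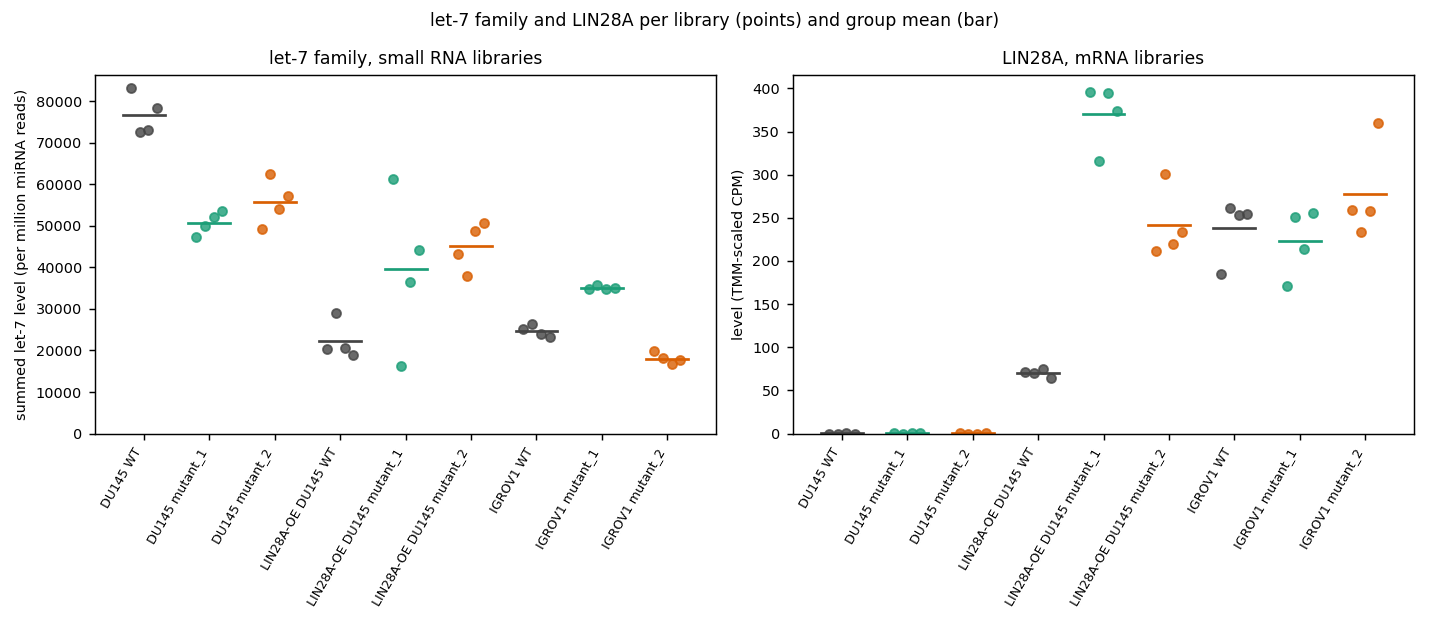
Summed let-7 family level (CPM of all microRNA reads, small RNA libraries) and LIN28A level (TMM-scaled CPM, mRNA libraries) in every library of the 9 groups; points are libraries and bars are means. let-7 is highest in DU145 WT (mean 76749) and low in LIN28A-OE DU145 WT (mean 22245), and the IGROV1 clones lie above and below their WT.

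Set beside let-7, the 4 members with a match shared a sign in the DU145 comparisons below, with mutants taken as the mean of clones, and not in IGROV1. Not all of these changes were called. In the order IGF1R, INSR, IRS1 and IRS2, log2 fold changes were 0.82, 0.96, 0.42 and 0.59 with LIN28A in WT. In the mean of clones they were -0.38, -0.64, -0.59 and -1.13 in the LIN28A-OE mutants. They were -0.20, -0.53, -0.17 and -0.99 in the DU145 mutants, and -0.80, 0.27, -0.37 and 0.23 in the IGROV1 mutants. With LIN28A in the mutants they were 0.645, 0.859, 0.004 and 0.45. Single clones did not all share the sign. IGF1R was 0.34 and IRS1 0.05 in DU145 mutant_2, and IGF1R was 0.29 in LIN28A-OE mutant_2. With LIN28A, IRS1 was -0.57 in mutant_2 and IRS2 was -0.185 in mutant_1. The let-7 differences that involve LIN28A-OE lines are those called with the highest row and not with all rows summed. In LIN28A-OE DU145 WT, with lower let-7 on that count, IGF1R and INSR were called higher. In the LIN28A-OE mutants, with more let-7 than their WT on the same count, INSR, IRS1 and IRS2 were called lower and IGF1R was lower only in mutant_1. In the DU145 mutants, with less let-7 than WT, INSR and IRS2 were called lower as well. In IGROV1, IGF1R was lower in each clone (log2 fold changes -0.84 and -0.76), while let-7 libraries lay above WT in mutant_1 and below it in mutant_2, differences not tested clone by clone. These are values side by side, and the part of let-7 in them was not tested.

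Of 65 other genes of the pathway, 61 passed the low-count filter. In the DU145 mutants 6 were called higher and 2 lower (13.1% of the 61, against 18.1% of all genes), in the LIN28A-OE DU145 mutants 4 and 5 (14.8% against 17.9%), and in the IGROV1 mutants 11 and 10 (34.4% against 33.2%), shares near or below those over all genes. With LIN28A, 10 were called higher and 2 lower in WT (19.7% against 9.21%), 18 and 2 in the mutants (32.8% against 23.6%), and 0 of the 61 were called by edgeR for the difference between these LIN28A effects (11 at an unadjusted p under 0.05, and 1 called by DESeq2). For the mutant effect in IGROV1 minus that in DU145, 6 were higher and 7 lower (21.3% against 24.2%), led by ENPP1 (log2 difference 3.19) and IGFBPL1 (1.25) and by HTRA1 (-1.68) and IGF2BP3 (-1.68). The genes named here are those with the largest changes in each direction. IGF2BP1, an oncofetal RNA-binding protein that binds IGF2 mRNA, rose in the DU145 mutants (WT 2.42 to 5.1 CPM, mutant_1 7.79 to 10.0 CPM, mutant_2 22.8 to 26.6 CPM, log2 fold change 1.96 ± 0.130, adjusted p = 3.22e-13). It also rose in the LIN28A-OE mutants (1.46 ± 0.113, adjusted p = 7.99e-12). The 3′ UTR of IGF2BP1 held 5 let-7 matches, 3 of them 8mers. Summed let-7, taken at the highest row, was below WT in the DU145 mutants (log2 difference -0.53) and above WT in the LIN28A-OE mutants (0.87). The part of let-7 in these changes was not tested. The related gene IGF2BP3 rose in the DU145 mutants (0.89 ± 0.166, adjusted p = 0.000101) and with LIN28A in WT (1.21 ± 0.185, adjusted p = 1.88e-05). In all, 18 of 64 pathway genes with a 3′ UTR held a let-7 match and 8 an 8mer.

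In the mTOR arm, the translation repressor EIF4EBP1 and the mTOR activator RHEB fell in the DU145 mutants (log2 fold changes -1.04 ± 0.115 and -0.48 ± 0.0639, adjusted p = 1.89e-08 and 6.5e-07) and in the LIN28A-OE mutants (-0.89 ± 0.115 and -0.67 ± 0.0631, adjusted p = 2.94e-07 and 5.04e-10). STC2, which inhibits the IGFBP protease PAPPA, rose in the LIN28A-OE mutants (1.13 ± 0.241, adjusted p = 0.000498) and fell with LIN28A in WT (-1.15 ± 0.268, adjusted p = 0.00249), as did ADAM12 (-1.24 ± 0.300, adjusted p = 0.00446). The transcription factor FOXO1, held in the cytoplasm by AKT, rose with LIN28A in WT (1.79 ± 0.301, adjusted p = 7.01e-05) and in the mutants (1.08 ± 0.209, adjusted p = 0.000189), where FOXO4 rose too (1.23 ± 0.206, adjusted p = 3.15e-05) and ADAM12 (-1.33 ± 0.198, adjusted p = 1.54e-05) and STC1 (-1.27 ± 0.265, adjusted p = 0.000435) fell. In IGROV1, ENPP1, a membrane enzyme that dampens the insulin receptor, rose (WT 1.31 to 1.86 CPM, mutant_1 6.93 to 9.72 CPM, mutant_2 19.3 to 23.2 CPM, log2 fold change 3.08 ± 0.151, adjusted p = 4.37e-18), and SOCS1 rose (1.76 ± 0.322, adjusted p = 3.16e-05). The pseudokinase TRIB3 (-1.38 ± 0.305, adjusted p = 0.000378) and the protease HTRA1 (-1.22 ± 0.230, adjusted p = 4.69e-05) fell there. Between WT lines, 20 of the 61 were called higher and 18 lower in IGROV1 (62.3% against 60%), with ADAMTS1 at 92.8 to 129 CPM in IGROV1 WT and at most 0.182 CPM in DU145 WT.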

How the data were processed

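Poly(A) mRNA libraries (NEBNext Ultra II Directional) and small RNA libraries of 2 cell lines were analysed, 36 of each in 9 groups. The authors trimmed the mRNA reads with Trimmomatic (0.39), removed ribosomal reads with sortmeRNA, aligned to hg38 with HISAT2 (2.1.0) and deposited raw gene counts made with HTSeq, whose version, annotation and strand setting are not given in the sources used here. Between 21.87% and 30.07% of reads were assigned to no gene and were left out of library sizes. The authors deposited microRNA counts from miRDeep2. A microRNA listed for several precursors was taken once, at its highest row. Without a known strand setting, reads from IGF1R and its antisense RNA cannot be told apart.

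Counts of 15556 genes that passed filterByExpr (minimum count 10) were fitted with edgeR's quasi-likelihood test (4.0.16, R 4.3.3) in 1 model of 36 libraries with TMM scaling, and called at a Benjamini-Hochberg adjusted p under 0.01. Values are log2 fold changes ± SE. Groups came from the labels. DESeq2 (1.42.0), other scalings, no filter, single clones, the compared groups alone, each library left out and a replicate block were alternatives. The code was tested on simulated data. Same-numbered libraries were checked for pairing: 28 of 48 pairs correlated above 0.1 (range -0.347 to 0.829), so the numbers were not taken as pairs. All 10 members are named in every comparison, and of 65 other pathway genes the 2 with the largest called change in each direction; values of a few genes on the pathway and marker lists are not reported here. The members and lists were chosen with earlier results of these data known.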

Additional observations from a re-analysis of the deposited data

Results flagged for a closer look

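Of 81 groups of 4 libraries tested over 9 members, 9 had 1 library far from the other 3 (Dixon's ratio above 0.829). Chance alone flags about 1 group in 20 where values are normally distributed, which CPM values need not be. Among the receptors and adaptors, INSR was at 48.6 CPM in IGROV1 mutant_1 replicate 3, against 58.95 to 60.18 CPM in the others of its group. IRS2 was at 276 CPM in LIN28A-OE DU145 WT replicate 2, against 68.88 to 101.6 CPM.

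The other 7 were binding proteins. IGFBP2 was at 15.3 CPM in DU145 mutant_1 replicate 1 (others 18.46 to 18.98 CPM), at 21.4 CPM in DU145 mutant_2 replicate 4 (others 16.5 to 17.27 CPM) and at 298 CPM in IGROV1 mutant_2 replicate 4 (others 226.5 to 235.8 CPM). That last library also held IGFBP3 at 1750 CPM (others 1134 to 1187 CPM) and is 1 of the 4 farthest from their group over all genes. IGFBP4 was at 402 CPM in DU145 WT replicate 4 (others 339.7 to 346 CPM). IGFBP5 was at 0.0702 CPM in IGROV1 WT replicate 3 and 0.308 CPM in IGROV1 mutant_1 replicate 4, on 1 and 2 reads, with the others of both groups at 0. With all others at 0 the ratio is 1 for any count above 0, so these 2 flags were fixed by the zeros.

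The mutant effect differed between lines, tested as IGROV1 minus DU145, for IGF1R (log2 difference -0.60), INSR (0.80), IGFBP2 (0.72) and IGFBP6 (-3.14). The LIN28A effect differed between mutants and WT for IGFBP4 (-0.96).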

How the results depend on the processing

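Over the alternatives that left out no library, 813 of 895 gene values kept direction and side of the threshold, 51 passed newly, 27 no longer passed and 4 reversed. Of 1260 values with 1 library left out, 1170 kept both, 15 passed newly and 75 no longer passed. The reversals came from taking 1 clone: IGFBP3 was 0.259 in IGROV1 mutant_2 and 0.446 in DU145 mutant_1, IRS1 was -0.571 with LIN28A in mutant_2, and IGFBP3 was -2.656 for the line difference with mutant_1. Members called were 3 for DU145 mutant_1 alone and 1 for LIN28A-OE mutant_2 alone. With LIN28A they were 0 in mutant_1 and 8 in mutant_2. For LIN28A in WT, 1 member was called in a fit of only the groups compared. For the LIN28A difference, 2 were called at an adjusted p under 0.05 and 3 without the 4 libraries farthest from their group, an alternative chosen after seeing the data. Between the LIN28A-OE clones 8 were called under either setting. Over all genes, leaving out the 4 libraries raised the calls between these clones from 5857 to 7599. For the LIN28A difference it raised them from 76 to 502. With 1 library left out, members called ranged from 2 to 5 in the DU145 mutants, 1 to 4 in the LIN28A-OE mutants, 2 to 5 for the line difference and 0 to 2 for the LIN28A difference.

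With the replicate block, 95 of 99 member calls were unchanged, 4 were gained and 0 lost, and LIN28A-OE mutants had 4 called. Gained were IGF1R in the LIN28A-OE mutants (-0.38, adjusted p 0.00863), IGFBP3 with LIN28A in WT (-1.08, 0.00863), IRS2 for the line difference (1.18, 0.00836) and IGFBP5 between the LIN28A-OE clones (-1.58, 0.00223). In 19 of 48 cases a library correlated best with its own number, and every same-numbered pair correlated above 0.1 in 3 of 12 pairs of groups (LIN28A-OE WT with mutant_2, and mutant_1 with mutant_2 in DU145 and in IGROV1), so numbers may pair some libraries. With the block the let-7 difference between LIN28A-OE and DU145 mutants was -0.4073 with an adjusted p of 0.0502, and it ran from -0.4948 to -0.2226 with 1 library left out. With all precursor rows summed, let-7 differences were 0.6127 (LIN28A-OE mutants, adjusted p 0.0572), -1.405 (LIN28A in WT, 0.0572) and -0.2281 (LIN28A in mutants, 0.242), by exact permutation tests. WT small RNA columns carry no replicate number, and each was left out by its column.

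Over all genes, those called for LIN28A in WT went from 1433 to 201 with only the groups compared, 4526 without the 4 libraries, 3128 without LIN28A-OE WT replicate 1 and as low as 849 without replicate 3. For the LIN28A difference they went from 76 to 171 by DESeq2, 502 without the 4 libraries, 194 without LIN28A-OE WT replicate 1 and 28 without DU145 WT replicate 3. The LIN28A-OE mutants went from 2787 to 4551 without the 4 libraries and the IGROV1 clones from 2925 to 1428 with only their groups. The causes were not tested. Depth limits IGF2, IGFBP5, IGFBP4 in IGROV1, and IGFBP6 in IGROV1 mutant_1 (3 to 9 reads per library).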
